A study of Homo sapiens with 24 samples.

Results

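The Kruppel-like factor (KLF) genes described here are KLF2, KLF3, KLF4, KLF5, KLF6, KLF7, KLF9, KLF10, KLF11 and KLF15, 10 of the 57820 genes counted, each found by its symbol and each with 1 row. RNA-seq was performed on 24 libraries in 8 groups of 3 biological replicates. AID-DIvA U2OS cells, derived from a human osteosarcoma and holding an added gene for the AsiSI restriction enzyme, were wild-type (WT) or ID3-KO and were either untreated or given mocetinostat, an inhibitor of class I histone deacetylases (HDACs), for 24 h and then left for 24 h in medium without the drug. U2OS cells, WT or ID3-KO, were untreated or given mocetinostat for 24 h, and for these the labels name no recovery. Collection before recovery is therefore inferred for U2OS, and recovery and the cell line cannot be told apart. All AID-DIvA groups, controls included, carry the AsiSI construct, no dose was given for this experiment, and the sources used here do not say whether the ID3-KO cells are 1 clone.

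The labels contradict themselves in 12 of 12 AID-DIvA libraries, whose titles and treatment entries name opposite treatments, and the titles were followed here. If those entries were right, the sign of every AID-DIvA treatment response and of the AID-DIvA interaction below would be reversed, the AID-DIvA comparison of untreated genotypes would be one of treated cells, and the differences between U2OS and AID-DIvA responses would take other values. Total counts ran from 37878751 to 76906266 per library, so that sampling noise was small for most members. KLF4 and KLF15 rest on few reads, and KLF2 held 99 to 184 counts per library in AID-DIvA WT cells. The study checked the knockout by Western blot of the ID3 protein, which RNA counts do not measure. ID3, the targeted gene, was still counted in the KO libraries. Without the drug its level was lower than in WT cells, at 30.6 ± 1.53 CPM (SD, n = 3) against 62.4 ± 15.9 in untreated U2OS cells and 34.8 ± 3.61 against 50.4 ± 2.2 in untreated AID-DIvA cells. CPM are counts over the library total after TMM scaling. COL1A1 and SPARC, which mesenchymal and osteoblast cells express, were at 823.9 CPM or more in every library, whereas BGLAP and COL1A2 stayed at or below 1.37 CPM. Of the leukocyte markers CD3E did not exceed 0.0404 CPM and PTPRC 0.407 CPM, and PTPRC fell with the drug in AID-DIvA WT (-1.26 ± 0.35) and U2OS ID3-KO cells (-0.96 ± 0.36). Of 8 mesenchymal and osteoblast markers 2 rose and 2 fell with the drug in AID-DIvA WT cells, 3 and 3 in AID-DIvA ID3-KO, 1 and 4 in U2OS WT and 2 and 4 in U2OS ID3-KO cells. SPARC fell and SPP1 rose in all 4, and ALPL rose in AID-DIvA and fell in U2OS cells. Their summed level, carried mainly by COL1A1, SPARC and VIM, was lower with the drug in all 4 comparisons, at 2853 to 3072 CPM against 4269 to 4699 CPM in U2OS WT cells. The part of these markers in the results below was not tested. The first replicate of untreated U2OS WT cells stood apart from the others of its group, with a chi-square per gene of 91.1 and 102.9 against them where all other pairs of replicates lay between 2.79 and 27.3, and with counts in 27361 genes against 28734 or more elsewhere. It held the lowest value of its group for KLF3, KLF5, KLF6, KLF7, KLF9, KLF10 and KLF11 and the highest for KLF2 and KLF15. Counts of members and of genes with related roles that use this group are therefore given with and without it. For members the value without it is given wherever a call changed, and for some where only the size changed. The ID3 difference in untreated U2OS cells was -1.03 on the log2 scale with it and -0.80 without it. With the drug ID3 rose by 1.24 ± 0.08 (SE, log2 scale) in AID-DIvA WT, 0.90 ± 0.09 in AID-DIvA ID3-KO and 0.22 ± 0.08 in U2OS ID3-KO cells. In U2OS WT cells the value was 0.40 ± 0.17 (edgeR, adjusted p = 0.0883), and without the library that stood apart it was 0.63 and passed.

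KLF proteins are transcription factors with zinc fingers at the C-terminal end that bind GC boxes and CACC boxes in promoters. Their N-terminal parts differ and recruit different partners. KLF3 binds the corepressor CtBP, KLF9, KLF10 and KLF11 bind Sin3A, which brings in class I HDACs, and KLF2, KLF4, KLF5, KLF6 and KLF7 act mostly as activators that work with histone acetyltransferases, although KLF4 and KLF5 can also repress. KLF15 belongs to none of these groups and is best known from metabolism in muscle and liver and from the response to glucocorticoids. Several members are immediate early or growth-controlled genes, and KLF4, KLF6, KLF9 and KLF10 have been described as restraining proliferation, while KLF5 often promotes it.

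The promoters of KLF15, KLF2, KLF6 and KLF9 are shown as examples. In this order, these genes gave the largest rise, a rise in 3 of 4 comparisons, a rise called only in AID-DIvA cells after recovery, and a rise called only in U2OS cells. KLF5 also rose in 3 of 4 comparisons, and KLF10 also rose only in U2OS cells. The RefSeq table held promoters for 8 of the 10 members, 13 windows in all, each from 250 bases before to 50 bases after an annotated start in GRCh38.p14. That build differs from the GRCh37 build of the counts. The sequences run 5′ to 3′ on the strand of the gene, and capitals mark the GC box, GGGCGG or its reverse complement CCGCCC.
KLF15 promoter, chr3:126357359-126357658, minus strand: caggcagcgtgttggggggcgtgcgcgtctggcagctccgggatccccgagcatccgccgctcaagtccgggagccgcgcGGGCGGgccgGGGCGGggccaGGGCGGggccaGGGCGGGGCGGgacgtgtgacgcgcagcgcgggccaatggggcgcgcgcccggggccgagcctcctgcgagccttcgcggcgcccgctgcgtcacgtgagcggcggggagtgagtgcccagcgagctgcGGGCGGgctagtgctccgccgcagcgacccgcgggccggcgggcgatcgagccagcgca
KLF2 promoter, chr19:16324576-16324875, plus strand: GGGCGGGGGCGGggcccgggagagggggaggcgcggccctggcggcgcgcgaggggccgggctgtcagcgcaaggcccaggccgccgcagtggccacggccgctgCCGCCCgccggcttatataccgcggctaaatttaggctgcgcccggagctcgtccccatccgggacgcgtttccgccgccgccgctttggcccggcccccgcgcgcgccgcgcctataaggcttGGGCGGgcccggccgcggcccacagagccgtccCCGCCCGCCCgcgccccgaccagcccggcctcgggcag
KLF6 promoter, chr10:3785160-3785459, minus strand: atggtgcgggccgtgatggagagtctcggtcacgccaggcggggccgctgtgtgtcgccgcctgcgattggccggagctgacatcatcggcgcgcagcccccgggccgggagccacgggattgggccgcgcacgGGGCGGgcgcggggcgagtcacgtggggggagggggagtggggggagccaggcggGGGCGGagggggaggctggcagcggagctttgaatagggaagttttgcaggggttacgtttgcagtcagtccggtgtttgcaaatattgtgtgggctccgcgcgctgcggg
KLF9 promoter, chr9:70414608-70414907, minus strand: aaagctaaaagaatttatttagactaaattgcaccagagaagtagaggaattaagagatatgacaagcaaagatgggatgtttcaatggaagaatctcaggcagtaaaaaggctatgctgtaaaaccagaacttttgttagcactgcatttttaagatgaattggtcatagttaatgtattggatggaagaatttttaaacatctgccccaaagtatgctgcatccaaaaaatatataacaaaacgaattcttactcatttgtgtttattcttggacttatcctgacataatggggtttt
The letters GGGCGG, on either strand and with overlaps counted, occurred 6 times in the KLF15 window, 6 times in that of KLF2, 2 times in that of KLF6 and 0 times in that of KLF9. Of 35116 promoter windows of the same length, 44.95% held at least 1 such match. CCAAT, the letters read by NF-Y, were found on either strand 1 time in the KLF15 window, 2 times in that of KLF6 and 2 times in that of KLF9, and 34.61% of all windows held them. CACCC, the letters of the CACC box, was in none of these 4 windows, against 59.87% of all windows. The genes shown were drawn from members with only 1 window. KLF5, KLF7 and KLF11 have more than 1 and are not shown, and windows of each of them held CACCC. These matches describe letters and not sites that are bound.

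The level of the members was compared per length, in TPM, a unit that corrects for gene length and sums to a fixed total in each library. Over the 24 libraries KLF10 was highest, with a mean of 55.2 TPM, followed by KLF6 at 40.9, KLF5 at 35.9, KLF11 at 29.9 and KLF3 at 22.8 TPM. KLF7 at 14.2, KLF9 at 11.4 and KLF2 at 7.87 TPM formed a middle tier, and KLF15 at 1.69 and KLF4 at 0.263 TPM were far below. The order changed with treatment. In untreated AID-DIvA WT cells KLF10 led with 57.9 ± 1.86 TPM over KLF6 with 37 ± 2.33, whereas after mocetinostat and recovery KLF6 led with 61.3 ± 2.26 TPM over KLF10 with 50.2 ± 1.17. In ID3-KO cells of that line KLF6 moved from the 3rd place, at 38.3 ± 2.42 TPM, to the 1st, at 57.4 ± 0.86 TPM against 53.4 ± 2.7 for KLF10. In U2OS WT cells KLF5 moved from the 5th place, at 17.7 ± 4.08 TPM, to the 2nd, at 43.1 ± 1.54. The 10 genes together made 177 ± 31.4 TPM in untreated U2OS WT cells and 245 ± 4.44 with mocetinostat, against 212 ± 7.32 and 219 ± 5.33 in AID-DIvA WT cells. The apart library alone gave 141 summed TPM, and the other untreated U2OS WT libraries reached up to 196.0.

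**Figure D1:**
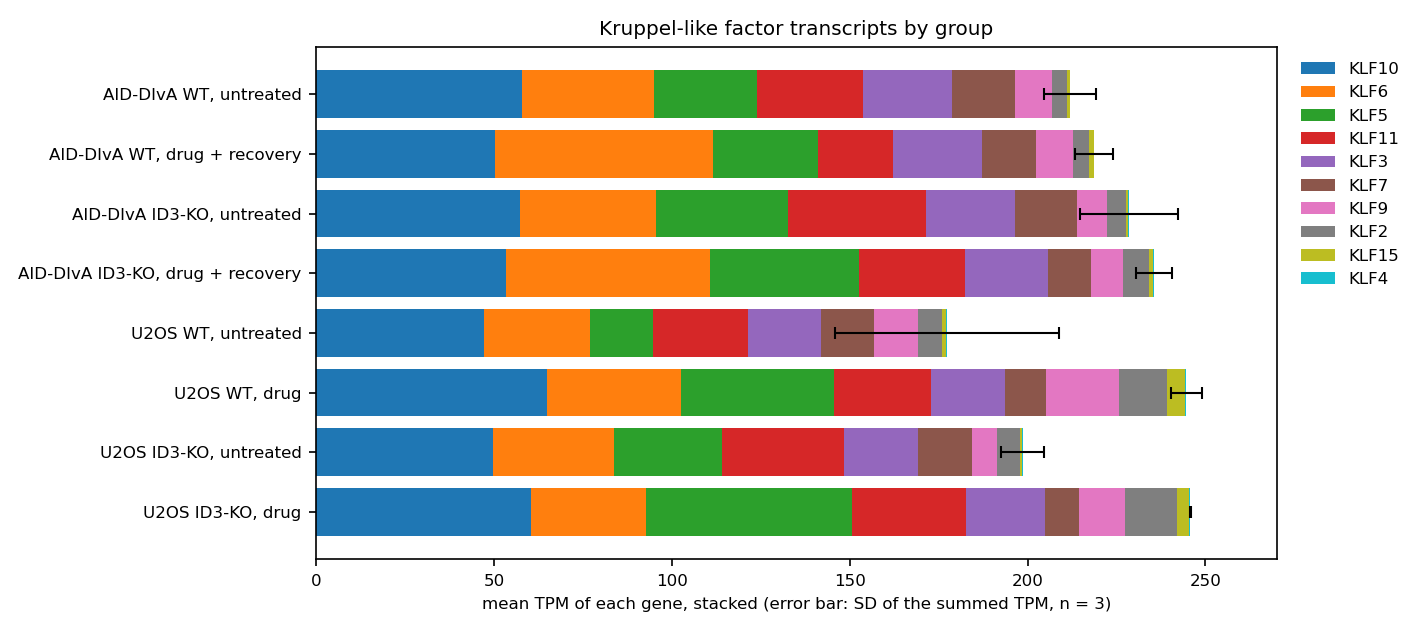
Mean TPM of the 10 KLF genes in each group, stacked, with the SD of the summed TPM over 3 libraries as error bar. The KLF6 segment is wider than that of KLF10 only in the AID-DIvA groups given mocetinostat and recovery (61.3 against 50.2 TPM in WT cells), and the KLF5 segment is widest in U2OS ID3-KO cells with mocetinostat (57.9 TPM).

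To ask how the members answer the drug, treated and untreated libraries were compared within each genotype and cell line with edgeR's quasi-likelihood test, and rose or fell is used for an adjusted p below 0.05 over all genes tested. In AID-DIvA WT cells after recovery 2 of 9 members tested rose and 3 fell, where 23.9% of all genes tested rose and 23% fell. AID-DIvA ID3-KO cells had 4 of 10 members higher and 2 lower, against 20.2% and 19.9% of all genes. In U2OS WT cells 5 of 10 rose and 1 fell, against 26% and 22.9%, and in U2OS ID3-KO cells 5 of 10 rose and 3 fell, against 35.8% and 34%. The median log2 fold change of the members was 0.08, 0.09, 0.50 and 0.12 in these comparisons, and that of all genes tested lay between -0.02 and 0.01. KLF15 rose in all 4 comparisons and KLF7 fell in all 4. KLF2 and KLF5 rose in 3 each, KLF11 fell in 3, and KLF3 and KLF4 passed the test in none. How many of all genes rose or fell in 3 or in all 4 comparisons was not counted. Without the library that stood apart, the U2OS WT comparison had 7 members higher and 3 lower, where 33.9% of all genes rose and 32.5% fell.

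**Figure D2:**
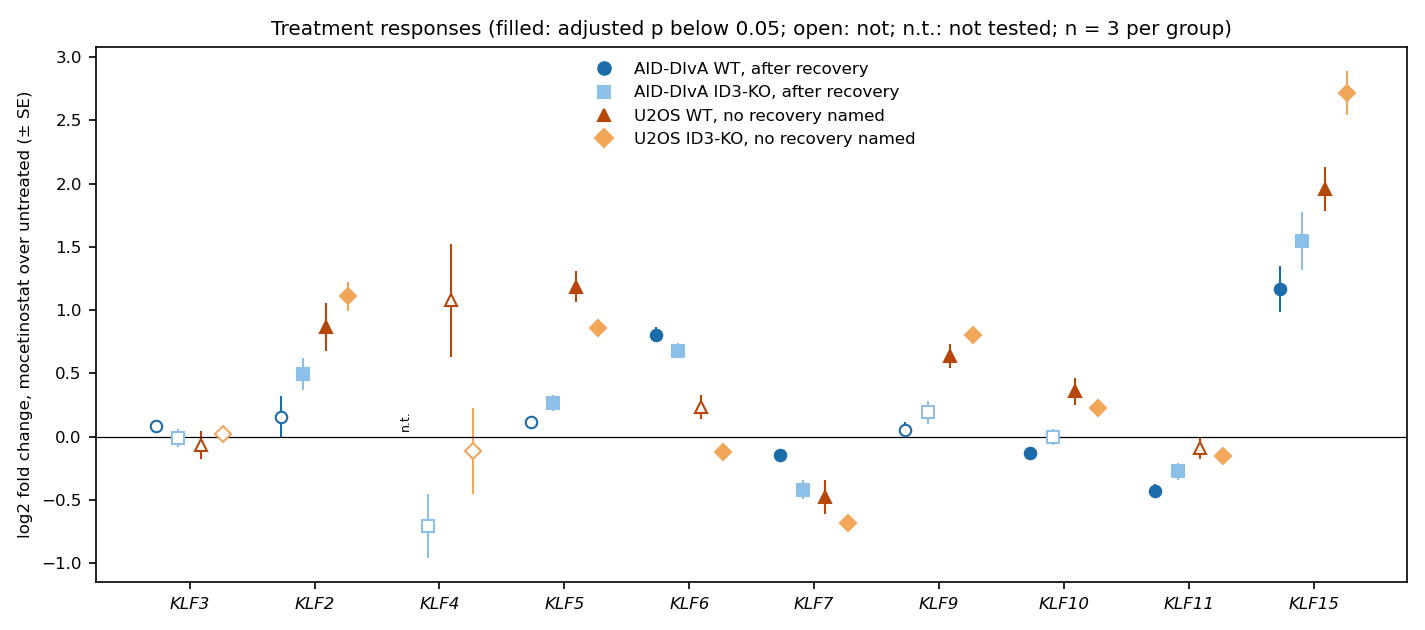
Log2 fold change of each member, mocetinostat over untreated, with its standard error in the 4 treatment comparisons (n = 3 per group). Filled symbols passed the test, and KLF15 lies between 1.17 and 2.71 while KLF7 lies between -0.68 and -0.14.

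KLF15 (ENSG00000163884.3, chromosome 3, 126061478 to 126076285, minus strand, GRCh37) showed the largest response of the 10 genes in all 4 comparisons. In U2OS WT cells it stood at 1.15, 1.1 and 0.777 CPM (74, 80 and 41 counts) without the drug and at 4.22, 3.95 and 3.62 CPM (276, 199 and 275 counts) with it. All treated libraries lay far above all untreated ones, a log2 fold change of 1.96 ± 0.17 (SE), or 3.89-fold, with an adjusted p of 7.63e-05, and 2.04 ± 0.16 without the apart library. U2OS ID3-KO cells started lower, at 0.504, 0.422 and 0.375 CPM, and reached 2.76, 2.73 and 3 CPM, a log2 fold change of 2.71 ± 0.17, or 6.56-fold (adjusted p = 2.83e-12). The ranges were again separate. After recovery the gene was less raised. AID-DIvA WT libraries held 0.566, 0.584 and 0.443 CPM untreated and 1.11, 1.24 and 1.2 CPM treated, a change of 1.17 ± 0.18 on the log2 scale (adjusted p = 0.000157). AID-DIvA ID3-KO libraries held 0.344, 0.355 and 0.548 CPM untreated and 1.48, 1.16 and 0.998 CPM treated, a change of 1.55 ± 0.23 (adjusted p = 0.000562). The treated and untreated groups did not overlap in either genotype, although these AID-DIvA values rest on 20 to 77 counts per library. In all 13 alternative settings of each comparison the rise passed the test. Among the 8 groups the order of KLF15 went from untreated AID-DIvA ID3-KO cells (0.416 ± 0.115 CPM) to U2OS WT cells with mocetinostat (3.93 ± 0.299 CPM), 9.46-fold apart, and 4 of the 7 neighbouring pairs in that order overlapped. The 3 gaps lay above the 3 lowest untreated groups, above the AID-DIvA treated groups, and between the U2OS treated groups, where WT cells were higher than ID3-KO cells.

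**Figure D3:**
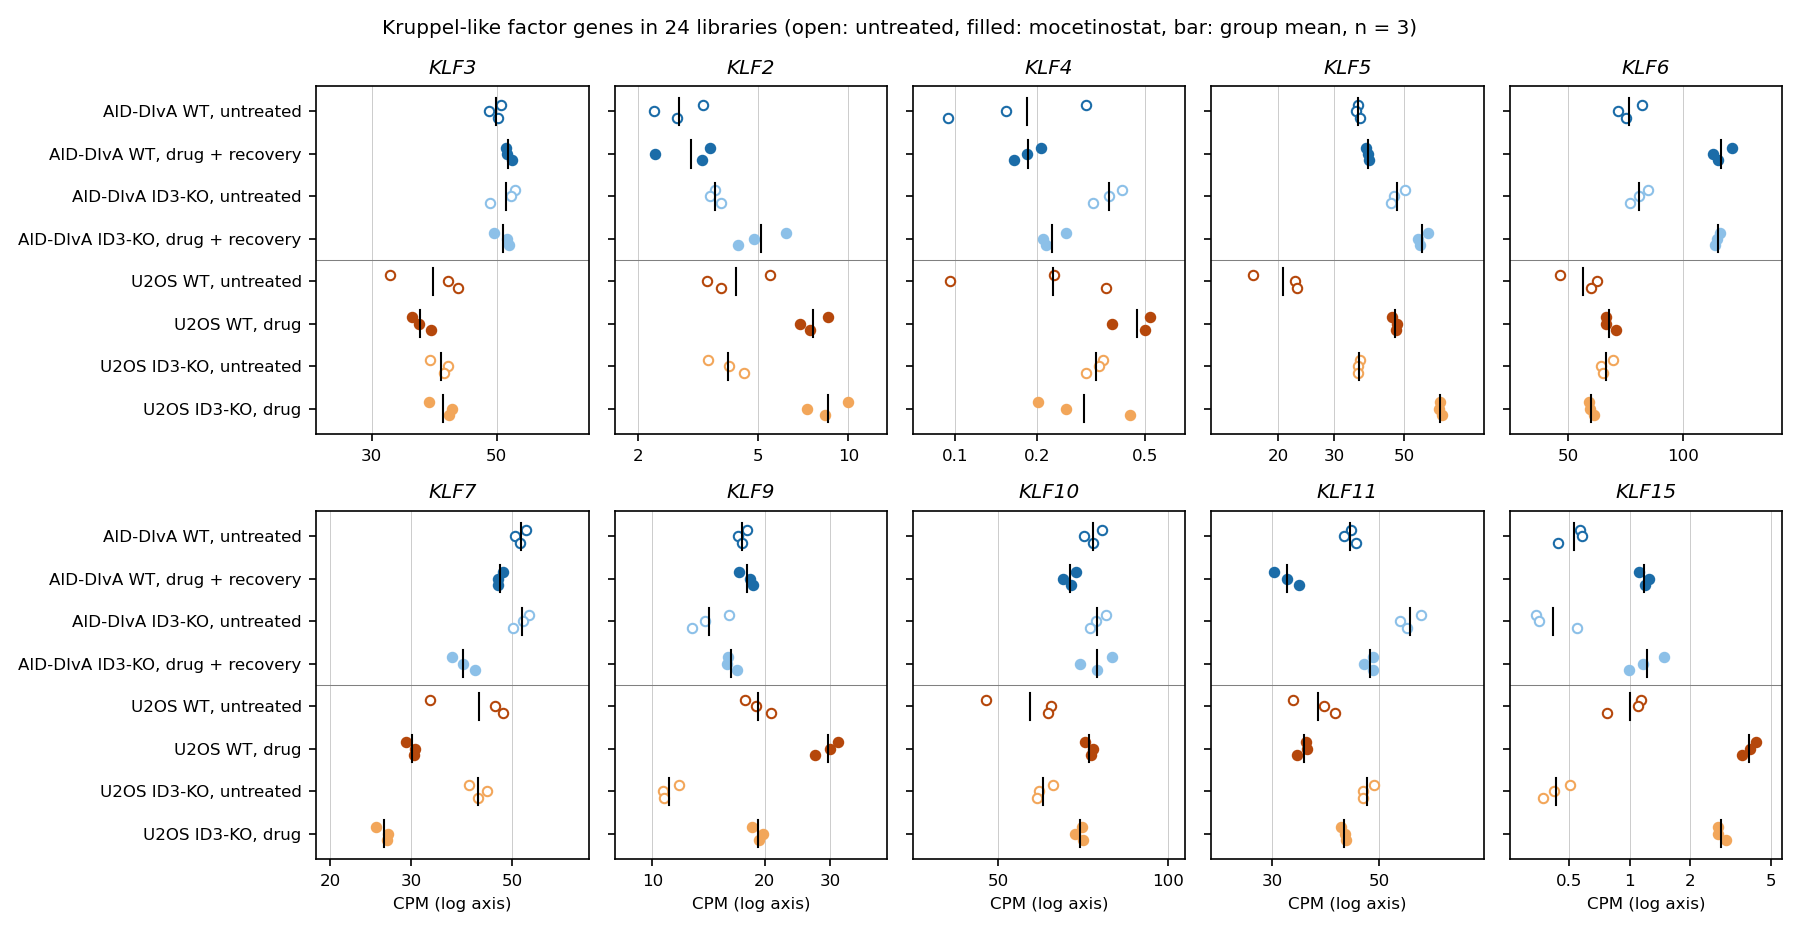
CPM of each member in each library on log axes that differ between panels, with open circles for untreated and filled circles for mocetinostat, and a bar at the mean of 3 replicates. KLF15 separates treated from untreated libraries in every genotype and line, KLF6 rises to 119.4 CPM or more in the AID-DIvA treated groups alone, and one open circle of U2OS WT sits low for KLF5, KLF7 and KLF10.

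Among the activators, KLF5 (ENSG00000102554.9, chromosome 13, 73629114 to 73651676, plus strand), which epithelial and smooth muscle cells use for growth, rose most clearly without recovery. U2OS WT libraries held 16.6, 22.6 and 22.9 CPM untreated and 45.8, 47.5 and 47.1 CPM treated, a log2 fold change of 1.19 ± 0.12 (adjusted p = 0.000172) that was 1.05 ± 0.05 without the library that stood apart. U2OS ID3-KO libraries went from 36.2, 35.8 and 35.7 CPM to 64.7, 64.3 and 66.1 CPM, or 0.86 ± 0.05 (adjusted p = 1e-13). Both pairs of groups were widely separated and the treated replicates lay close together. After recovery the rise was small, at 0.27 ± 0.06 in ID3-KO cells (adjusted p = 0.00847). In WT cells the value of 0.11 ± 0.05 missed the threshold (adjusted p = 0.0639), although 37.9 to 38.6 CPM in treated libraries did not overlap with 35.1 to 36.2 CPM in untreated ones. Without treated replicate 1 it passed (0.12, adjusted p = 0.0164). Of the epithelial markers, EPCAM rose in all 4 treatment comparisons and CDH1 in AID-DIvA WT cells, while KRT19 did not pass the filter. Without the apart library all 3 were tested in U2OS WT cells and 2 rose. The summed level of the 3 genes was 5.94 to 6.66 CPM in untreated and 9.53 to 9.96 CPM in treated U2OS WT cells, and 5.44 to 6.25 against 7.52 to 8.04 CPM in AID-DIvA WT cells. In ID3-KO cells it was 5.7 to 6.72 against 10.32 to 10.68 CPM (U2OS) and 6.88 to 7.58 against 9.75 to 10.04 CPM (AID-DIvA). Their part in the KLF5 result was not tested.

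KLF2 (ENSG00000127528.5, chromosome 19, 16435628 to 16438685, plus strand) is known for quiescence in T cells and for the response of endothelium to flow. In U2OS WT cells its level was 5.5, 3.38 and 3.77 CPM untreated and 8.53, 6.93 and 7.44 CPM treated, and in U2OS ID3-KO cells 3.41, 4.02 and 4.49 CPM against 9.96, 7.3 and 8.38 CPM. The groups were separate in both genotypes, with log2 fold changes of 0.87 ± 0.19 (adjusted p = 0.00701) and 1.11 ± 0.11 (adjusted p = 1.37e-08). Without the apart library the WT value was 1.11 ± 0.11. In AID-DIvA ID3-KO cells KLF2 rose by 0.50 ± 0.12 (adjusted p = 0.0105), from at most 3.76 CPM to at least 4.29 CPM. AID-DIvA WT groups overlapped, at 2.25 to 3.27 CPM untreated and 2.28 to 3.46 CPM treated, with a value of 0.16 ± 0.16 (adjusted p = 0.455). PECAM1 was not analysed here, and of the other endothelial markers CDH5 rose in 4 of 4 treatment comparisons and VWF in 3 of 4, and their summed level was 5.4 to 7.26 CPM in untreated and 9.29 to 10.96 CPM in treated U2OS WT cells. In U2OS ID3-KO cells that sum was 3.14 to 3.32 and 5.21 to 6.46 CPM. In AID-DIvA cells it was 2.87 to 3.2 and 2.74 to 4.32 CPM (WT) and 1.6 to 2.04 and 3.05 to 3.19 CPM (ID3-KO). CDH5, the cadherin that defines endothelium, was below 0.92 CPM in every library. All libraries came from U2OS cells or AID-DIvA U2OS cells, and how these markers relate to the KLF2 result was not tested. In bulk RNA, a change in some cells of a culture and a change in all of them cannot be told apart.

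KLF6 (ENSG00000067082.10, chromosome 10, 3818188 to 3827473, minus strand), which has been described as a tumour suppressor, had the opposite pattern over the lines. Untreated AID-DIvA WT cells held 78.3, 67.6 and 70.7 CPM and treated ones 134.1, 119.4 and 123.2 CPM, a rise of 0.81 ± 0.06 (adjusted p = 1.9e-07). ID3-KO cells of that line went from 81.1, 76.6 and 72.6 CPM to 124.9, 122.8 and 121.2 CPM, or 0.68 ± 0.06 (adjusted p = 2.18e-05). These groups were far apart, and the rise passed the test in all 13 alternatives of both comparisons. In U2OS ID3-KO cells KLF6 instead fell slightly, from 65.5, 61.1 and 61.7 CPM to 56.7, 57.1 and 58.4 CPM, a change of -0.12 ± 0.05 (adjusted p = 0.0225). That call was lost with at least 10 counts in every library (-0.09, adjusted p = 0.0787), with all 4 U2OS groups in one fit (-0.12, adjusted p = 0.172) and without the first untreated ID3-KO replicate (-0.09, adjusted p = 0.128). U2OS WT cells held 47.6, 59.5 and 57.6 CPM untreated and 63, 62.9 and 66.6 CPM treated, a value of 0.24 ± 0.10 that missed the threshold (adjusted p = 0.0742). Without the apart library the difference was 0.14 ± 0.04 and passed (adjusted p = 0.00235), as it did with all 4 U2OS groups in one fit (0.23, adjusted p = 0.016).

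KLF7 (ENSG00000118263.10, chromosome 2, 207938861 to 208031991, minus strand), a factor of neuronal development, was lower with mocetinostat throughout. In U2OS ID3-KO cells it fell from 40.3, 43.9 and 42.2 CPM to 25.2, 26.8 and 26.6 CPM, a log2 fold change of -0.68 ± 0.05 (adjusted p = 7.14e-11). U2OS WT cells went from 33.1, 45.8 and 47.7 CPM to 29.3, 30.6 and 30.6 CPM, or -0.47 ± 0.13 (adjusted p = 0.0199), and without the apart library the value was -0.63 ± 0.05 (adjusted p = 7.22e-17). The groups were separate in both. Leaving out any other single U2OS WT library, treated or untreated, ended the WT call, with values of -0.49 to -0.39 and adjusted p between 0.0583 and 0.0742. In AID-DIvA ID3-KO cells the gene fell by 0.42 ± 0.07 on the log2 scale (adjusted p = 0.00166), from 50.1 to 54.4 CPM to 37 to 41.4 CPM. The fall in AID-DIvA WT cells was small, -0.14 ± 0.05 (adjusted p = 0.0211), between 50.8 to 53.6 CPM and 46.5 to 47.6 CPM. It was not called with all 4 AID-DIvA groups in one fit (adjusted p = 0.058) or without untreated replicate 1 (adjusted p = 0.103), untreated replicate 3 (0.0576), treated replicate 2 (0.0634) or treated replicate 3 (0.0506).

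KLF4 (ENSG00000136826.10, chromosome 9, 110247133 to 110252763, minus strand), a reprogramming factor and regulator of epithelial differentiation, was near the limit of measurement, with 6 to 38 counts per library. U2OS WT cells held 0.232, 0.0965 and 0.36 CPM untreated and 0.52, 0.377 and 0.501 CPM treated. These ranges did not overlap, but the log2 fold change of 1.08 ± 0.45 missed the threshold (adjusted p = 0.0802). It passed with all 4 U2OS groups in one fit (1.08, adjusted p = 0.0334), without the apart library (1.14, adjusted p = 0.0189) and without untreated replicate 3 (1.52, adjusted p = 0.0339). AID-DIvA ID3-KO cells held 0.412, 0.369 and 0.321 CPM untreated and 0.257, 0.211 and 0.217 CPM treated, a value of -0.70 ± 0.25 at the edge of the threshold (adjusted p = 0.0503). With reverse-strand counts it passed (-0.71, adjusted p = 0.0447). In U2OS ID3-KO cells the groups overlapped (-0.11 ± 0.34, adjusted p = 0.784), and in AID-DIvA WT cells KLF4 did not pass the filter on low counts.

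Of the factors that bind Sin3A, KLF9 (ENSG00000119138.3, chromosome 9, 72999503 to 73029540, minus strand), a target of glucocorticoid and thyroid hormone receptors, rose in U2OS cells. WT cells went from 17.7, 19 and 20.9 CPM to 31.6, 30 and 27.4 CPM, a log2 fold change of 0.64 ± 0.09 (adjusted p = 0.000872) that was 0.58 ± 0.06 without the apart library. ID3-KO cells went from 11.8, 10.7 and 10.8 CPM to 18.5, 19.8 and 19.3 CPM, or 0.80 ± 0.06 (adjusted p = 1.21e-10). Treated ID3-KO cells thereby came to 19.2 ± 0.66 CPM, within the range of untreated WT cells. After recovery the treated and untreated groups overlapped in both genotypes, with values of 0.05 ± 0.06 in WT cells (adjusted p = 0.505) and 0.19 ± 0.09 in ID3-KO cells (adjusted p = 0.124). The second of these passed without the first untreated ID3-KO replicate (0.29, adjusted p = 0.0486).

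KLF10 (ENSG00000155090.10, chromosome 8, 103661007 to 103668130, minus strand), an early gene of the TGF-beta response, moved little at a high level. In U2OS ID3-KO cells it rose from 62.6, 59 and 58.7 CPM to 70.4, 68.4 and 70.7 CPM, or 0.22 ± 0.05 (adjusted p = 0.00015). In U2OS WT cells the rise from 47.6, 62.1 and 61.4 CPM to 71.1, 73.6 and 73 CPM was 0.36 ± 0.11 (adjusted p = 0.0258), and 0.24 ± 0.04 without the apart library. Leaving out any treated U2OS WT library ended that call (adjusted p between 0.0737 and 0.0896). AID-DIvA WT cells showed a fall of 0.13 ± 0.05 on the log2 scale (adjusted p = 0.0408), from 71.1 to 76.3 CPM to 65.1 to 68.7 CPM, which was called in 4 of 13 alternatives. It was lost without any 1 of 5 libraries (adjusted p between 0.0529 and 0.181), with DESeq2 (0.0721) and without a filter (0.0517). In AID-DIvA ID3-KO cells the groups overlapped at 0.00 ± 0.06 (adjusted p = 0.962).

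KLF11 (ENSG00000172059.6, chromosome 2, 10182976 to 10194963, plus strand), known from pancreatic beta cells and TGF-beta signalling, was lower after treatment. In AID-DIvA WT cells it fell from 43.6, 42.2 and 44.7 CPM to 30.2, 32.2 and 34.2 CPM, a change of -0.43 ± 0.06 (adjusted p = 3.38e-05). AID-DIvA ID3-KO cells fell from a higher level, 61.2, 55.4 and 57.1 CPM, to 48.5, 46.5 and 48.6 CPM, or -0.27 ± 0.06 (adjusted p = 0.00809). The groups were separate in both genotypes, and the second call was lost without untreated ID3-KO replicate 1 (-0.23, adjusted p = 0.0671). In U2OS ID3-KO cells the fall was -0.15 ± 0.05 (adjusted p = 0.00641), which was not called with all 4 U2OS groups in one fit (adjusted p = 0.0711). U2OS WT groups overlapped, at -0.09 ± 0.09 (adjusted p = 0.437), and without the apart library the value was -0.17 ± 0.05 (adjusted p = 0.00129).

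KLF3 (ENSG00000109787.8, chromosome 4, 38665817 to 38702663, plus strand), the CtBP-binding repressor of fat and blood cell genes, passed the test in none of the treatment comparisons. An antisense gene that overlaps it held 13 to 46 counts per library, and the same held with reverse-strand counts. Its log2 fold changes were 0.08 ± 0.05, -0.01 ± 0.07, -0.07 ± 0.11 and 0.02 ± 0.05 in AID-DIvA WT, AID-DIvA ID3-KO, U2OS WT and U2OS ID3-KO cells, with adjusted p between 0.151 and 0.912. The levels followed the cell line instead. All 12 AID-DIvA libraries lay between 48.4 and 53.9 CPM, above all 12 U2OS libraries at 32.3 to 42.6 CPM. Without the apart library KLF3 was 0.18 ± 0.05 lower on the log2 scale in treated U2OS WT cells (adjusted p = 0.00074), and without treated replicate 1 it was 0.09 higher in AID-DIvA WT cells (adjusted p = 0.0475).

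Whether the response differed between the U2OS cells and the recovered AID-DIvA cells was tested on the difference itself, in a fit of all 24 libraries. In WT cells the U2OS response was higher for 6 of 10 members and lower for 2, where 22.8% of all genes were higher and 22.6% lower, and the median difference of the members was 0.53 against 0.01 for all genes. In ID3-KO cells 4 were higher and 1 was lower, against 24.3% and 21.7%, with a median of 0.40 against 0.04. KLF5 had the largest difference in WT cells, 1.07 ± 0.11 (adjusted p = 1.59e-08), and 0.59 ± 0.11 in ID3-KO cells (adjusted p = 8.43e-05). KLF15 differed by 0.79 ± 0.26 in WT cells (adjusted p = 0.0141) and by 1.16 ± 0.29 in ID3-KO cells (adjusted p = 0.00163), and KLF9 by 0.59 ± 0.11 and 0.61 ± 0.12 (adjusted p = 0.000128 and 0.000107). The WT call of KLF15 was lost without untreated AID-DIvA WT replicate 2 (0.70, adjusted p = 0.0527).

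KLF6 went the other way, with a U2OS response that was lower by 0.57 ± 0.10 on the log2 scale in WT cells (adjusted p = 5.78e-05) and by 0.81 ± 0.10 in ID3-KO cells (adjusted p = 4.18e-07). KLF10 (0.48 ± 0.11, adjusted p = 0.000495), KLF11 (0.33 ± 0.10, adjusted p = 0.00573) and KLF7 (-0.33 ± 0.12, adjusted p = 0.029) differed in WT cells. In ID3-KO cells these genes had 0.22 ± 0.11, 0.12 ± 0.10 and -0.26 ± 0.12, with adjusted p of 0.0879, 0.341 and 0.084. KLF2 was close to the threshold, at 0.71 ± 0.26 in WT cells (adjusted p = 0.0262) and 0.61 ± 0.25 in ID3-KO cells (adjusted p = 0.0481). Its WT call was lost without untreated AID-DIvA replicate 1 (adjusted p = 0.0951), treated AID-DIvA replicate 2 (0.0865), untreated U2OS replicate 2 (0.0754) or 3 (0.0548), or treated U2OS replicate 1 (0.0695). Its ID3-KO call was lost without any 1 of 9 libraries (adjusted p between 0.0626 and 0.139) and with DESeq2 (0.069). The KLF7 call was lost without any 1 of 5 libraries, AID-DIvA WT untreated replicates 2 and 3, U2OS WT untreated replicates 2 and 3 and U2OS WT treated replicate 1 (adjusted p between 0.0505 and 0.108). Without the apart library all 8 calls in WT cells held, and KLF3 was added at -0.27 ± 0.08 (adjusted p = 0.0052). The values were then 0.94 for KLF2, -0.49 for KLF7, 0.36 for KLF10 and 0.25 for KLF11. For KLF5, KLF6, KLF9 and KLF15 they were 0.93, -0.67, 0.52 and 0.87. The shares of all genes called in that fit were not counted.

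**Figure D4:**
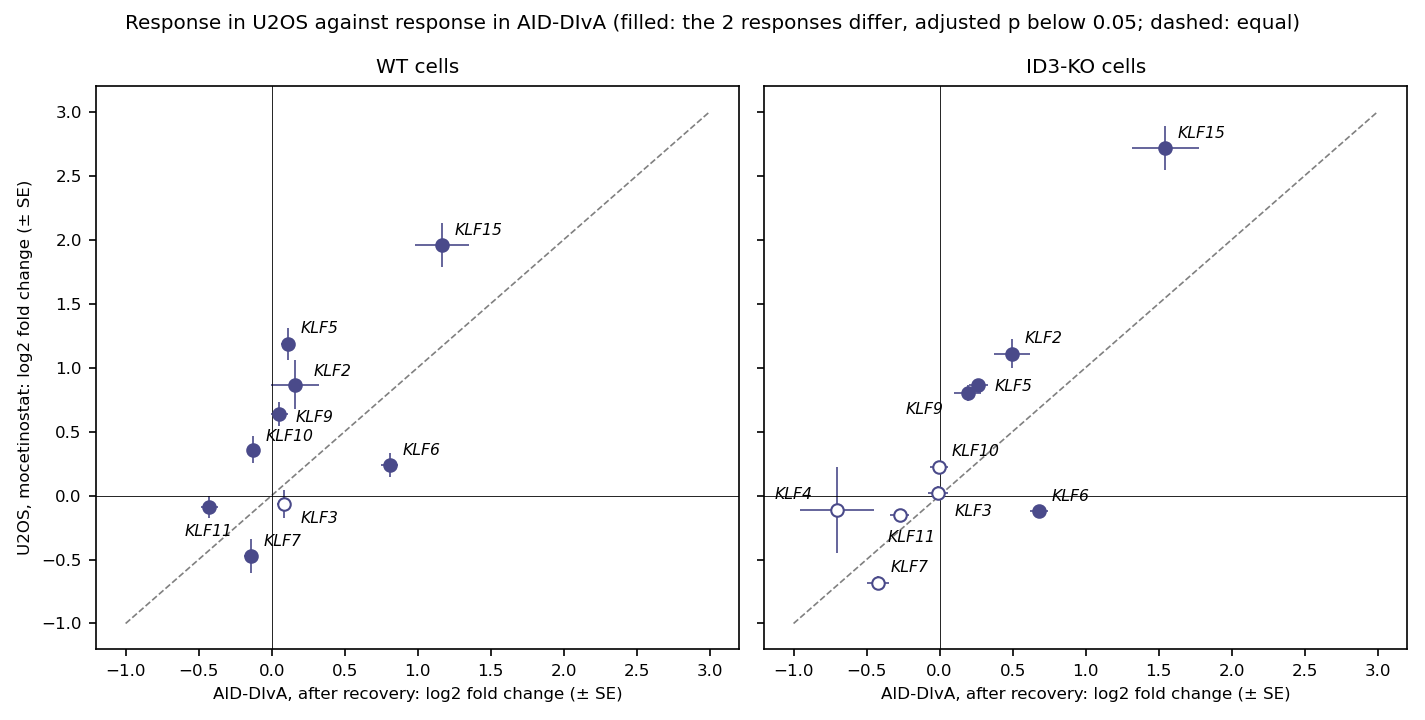
Log2 fold change with its standard error in U2OS cells (vertical) against that in AID-DIvA cells after recovery (horizontal), for WT and ID3-KO cells, with the line of equal responses dashed and filled symbols where the difference passed the test. KLF15, KLF5, KLF2 and KLF9 lie above the line and KLF6 lies below it in both genotypes, and KLF4 is absent from the WT panel because it was not tested in AID-DIvA WT cells.

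The effect of ID3 loss was compared in untreated cells, which are the controls of the treatment comparisons too. In AID-DIvA cells 4 of 10 members were higher in ID3-KO than in WT cells and 1 was lower, where 18.6% and 18.1% of all genes were. In U2OS cells 2 were higher and 2 were lower, against 6.56% and 8.63%. The median log2 difference of the members was 0.05 in AID-DIvA and 0.06 in U2OS cells, against 0.00 and -0.01 for all genes. KLF5, KLF11 and KLF9 passed in both lines. KLF5 was higher in ID3-KO cells by 0.38 ± 0.05 in AID-DIvA cells (adjusted p = 1.35e-05) and by 0.79 ± 0.13 in U2OS cells (adjusted p = 0.00587). Without the apart library the U2OS value was 0.66 ± 0.05. KLF11 was higher by 0.39 ± 0.05 (adjusted p = 1.28e-05) and by 0.33 ± 0.09 (adjusted p = 0.0458). The U2OS call of KLF11 was lost in 5 of 6 fits with 1 library left out (adjusted p between 0.0507 and 0.177), whereas without the apart library it was 0.26 ± 0.04 (adjusted p = 9.25e-06).

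KLF9 was lower in untreated ID3-KO cells, by 0.32 ± 0.07 on the log2 scale in AID-DIvA cells (adjusted p = 0.0027) and by 0.79 ± 0.09 in U2OS cells (adjusted p = 0.0014), where it was lower by 0.85 ± 0.07 without the apart library. KLF15 was lower in U2OS ID3-KO cells, at -1.23 ± 0.24 (adjusted p = 0.0143), with 0.375 to 0.504 CPM against 0.777 to 1.15 CPM in WT cells. That call was lost without untreated ID3-KO replicate 2 (-1.21, adjusted p = 0.0732) or 3 (-1.14, adjusted p = 0.0775), and without the apart library the value was -1.14 ± 0.27 (adjusted p = 0.000778). In AID-DIvA cells the KLF15 groups overlapped (-0.39 ± 0.25, adjusted p = 0.244). KLF2 (0.38 ± 0.12, adjusted p = 0.0231) and KLF4 (1.03 ± 0.35, adjusted p = 0.031) were higher in AID-DIvA ID3-KO cells. Neither call held with DESeq2 (adjusted p = 0.055 and 0.134) or without untreated WT replicate 2 (0.145 and 0.103) or 3 (0.0874 and 0.171). That of KLF4 was also lost without untreated ID3-KO replicate 1 (0.0925) or 2 (0.0624). KLF3, KLF6, KLF7 and KLF10 passed in neither line. In U2OS cells KLF2 was not called, at -0.09 ± 0.20 with the apart library and 0.16 ± 0.12 without it. Without the apart library KLF7 was 0.15 ± 0.05 lower on the log2 scale in U2OS ID3-KO cells (adjusted p = 0.00723), which made 2 members higher and 3 lower against 20.5% and 20.6% of all genes.

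Whether the genotypes differed in their response was tested by the interaction of genotype and treatment. With edgeR 0 of 10 members passed in either direction in AID-DIvA cells, where 0.762% of all genes were higher and 0.451% lower, and 0 of 10 passed in U2OS cells, against 1.1% and 1.06%. The unadjusted p was below 0.05 for 2 members of 10 in AID-DIvA cells (KLF5 and KLF7), against 11.8% of all genes, and for 3 in U2OS cells (KLF5, KLF6 and KLF15), against 13.2%. In U2OS cells the drug response of ID3-KO cells minus that of WT cells was -0.36 ± 0.11 for KLF6 (adjusted p = 0.118), 0.76 ± 0.24 for KLF15 (adjusted p = 0.143) and -0.32 ± 0.13 for KLF5 (adjusted p = 0.29). The KLF6 interaction passed with DESeq2 (-0.35, adjusted p = 0.0266), in which 1 member passed, and without the apart library (-0.26 ± 0.06, adjusted p = 0.0048). Without that library the value of KLF5 was -0.19 ± 0.07 (adjusted p = 0.0723). Those of KLF2 and KLF7, 0.25 and -0.20 with it, were -0.0055 and -0.06. The shares of all genes called with DESeq2 or without that library were not counted for the interaction. In AID-DIvA cells KLF7 had the smallest p, with -0.27 ± 0.09 (adjusted p = 0.176), and DESeq2 called no member there.

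Genes with related roles were drawn from lists, and their counts stand against the shares of all genes that rose and fell, 23.9% and 23% in AID-DIvA WT, 20.2% and 19.9% in AID-DIvA ID3-KO, 26% and 22.9% in U2OS WT and 35.8% and 34% in U2OS ID3-KO cells. For U2OS WT cells without the apart library those shares were 33.9% and 32.5%. Shares of all genes called in several of the 4 comparisons were not counted. Of the 16 other KLF and SP genes 12 were tested in AID-DIvA WT cells, of which 2 rose and 7 fell (median log2 fold change -0.17). The counts were 1 and 5 of 12 in AID-DIvA ID3-KO cells (-0.26), 2 and 2 of 12 in U2OS WT cells (0.13, with 5 and 4 without the apart library) and 2 and 3 of 11 in U2OS ID3-KO cells (0.08). SP2, a widely expressed relative, fell in all 4 comparisons, by 0.37 ± 0.06, 0.25 ± 0.08, 0.68 ± 0.07 and 0.54 ± 0.06 in the same order. SP1 and SP3, the common GC-box factors, each fell in 3 comparisons, and in U2OS WT cells too without the apart library (-0.54 ± 0.04 and -0.51 ± 0.04). Their changes in U2OS ID3-KO cells were -0.60 ± 0.04 and -0.50 ± 0.05. SP6 rose in U2OS cells, by 1.09 ± 0.09 in WT and 1.09 ± 0.07 in ID3-KO cells, and in AID-DIvA cells its values were -0.10 ± 0.09 and -0.19 ± 0.11 (adjusted p = 0.356 and 0.213). KLF17 fell in 3 comparisons but rests on 0 to 50 counts per library.

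Of 14 genes described as KLF targets 9 rose and 2 fell in AID-DIvA WT cells (median 0.50), 11 and 1 in AID-DIvA ID3-KO cells (0.52), 8 and 3 in U2OS WT cells (0.57, with 9 and 3 without the apart library) and 9 and 5 in U2OS ID3-KO cells (0.85). CDKN1A, LGALS3, MAOA, MAOB, PRODH and S1PR1, 6 of the 14, rose in all 4 comparisons, and TAGLN fell in all 4. The share of all genes that rose in all 4 was not counted. Whether KLF proteins acted on these genes here was not tested. MAOB, a monoamine oxidase gene tied to KLF11, rose by 2.57 ± 0.10 in U2OS WT and 3.65 ± 0.12 in U2OS ID3-KO cells, against 0.53 ± 0.09 and 1.10 ± 0.13 in AID-DIvA cells. PRODH, a proline-degrading enzyme that KLF15 is known to induce, rose by 2.53 ± 0.22 and 2.12 ± 0.14 in U2OS and by 1.16 ± 0.23 and 1.20 ± 0.18 in AID-DIvA cells. BCAT2, also tied to KLF15, rose by 0.32 ± 0.07 and 0.38 ± 0.08 in AID-DIvA cells but fell by 0.36 ± 0.05 in U2OS ID3-KO cells. CDKN1A, the p21 gene that KLF4 and KLF6 can activate, rose by 0.92 to 1.21 in the 4 comparisons.

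Of 9 cofactor genes 2 rose and 4 fell in AID-DIvA WT cells (median -0.12), 1 and 2 in AID-DIvA ID3-KO cells (-0.14), 1 and 4 in U2OS WT cells (-0.36, with 2 and 6 without the apart library) and 2 and 6 in U2OS ID3-KO cells (-0.30). The acetyltransferase genes CREBBP and KAT2B fell in all 4. CREBBP fell by 1.11 ± 0.04 in U2OS ID3-KO cells, and KAT2B by 0.81 ± 0.09 in AID-DIvA ID3-KO cells. CTBP2, whose product partners KLF3, rose after recovery (0.16 ± 0.04 and 0.32 ± 0.06 in AID-DIvA WT and ID3-KO cells) and fell in U2OS cells (by 0.39 ± 0.07 and 0.29 ± 0.04).

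**Figure D5:**
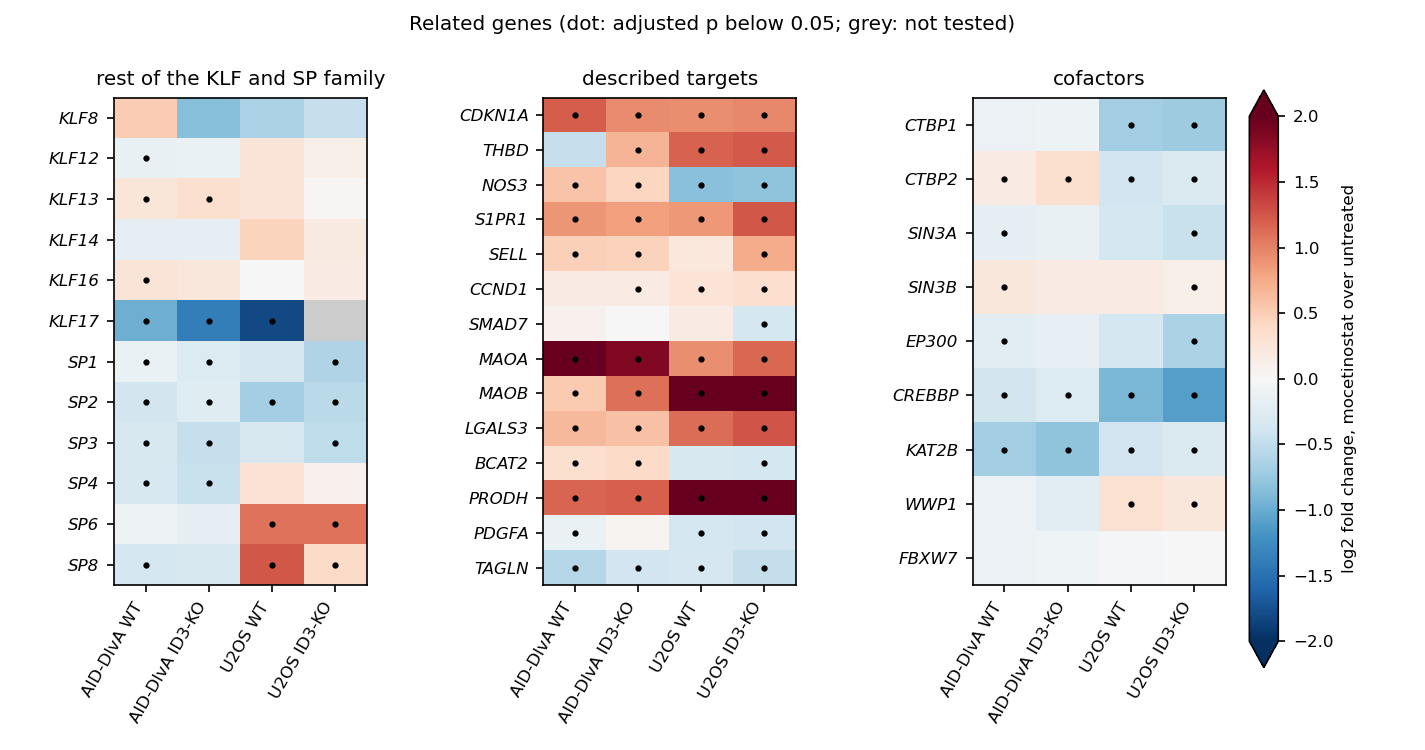
Log2 fold change, mocetinostat over untreated, of the other KLF and SP genes tested, the described targets and the cofactors in the 4 treatment comparisons, with a dot where the adjusted p was below 0.05 and the colour scale ending at -2 and 2. SP2, CREBBP and KAT2B are dotted and blue in all 4 columns, and CDKN1A, MAOA, MAOB, LGALS3, PRODH and S1PR1 are dotted and red in all 4.

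Over the 8 groups the members differed in how they were ordered. KLF10 varied least, 1.31-fold between the lowest and the highest group mean, and 5 of its 7 neighbouring pairs of groups overlapped. KLF3 (1.43-fold) overlapped in 6 of 7, with the gap between the lines. KLF11 ran from 32.2 ± 1.97 CPM in AID-DIvA WT cells after recovery to 57.9 ± 2.95 CPM in untreated AID-DIvA ID3-KO cells. KLF7 was lowest in the U2OS groups given the drug, at 26.2 ± 0.885 CPM (ID3-KO) and 30.1 ± 0.759 CPM (WT), whose ranges overlapped neither with each other nor with any other group. Its highest groups were untreated AID-DIvA cells of both genotypes, at 52.1 ± 1.41 and 52.4 ± 2.15 CPM, and these overlapped. KLF6 had its 2 highest groups after recovery, at 123.0 ± 1.9 and 125.6 ± 7.63 CPM, well above the next at 76.8 ± 4.26 CPM. KLF5 was the most finely ordered, with 5 of 7 neighbouring pairs apart, from untreated U2OS WT cells (20.7 ± 3.56 CPM) to U2OS ID3-KO cells with the drug (65 ± 0.913 CPM). For KLF9, U2OS WT cells with the drug stood alone at 29.7 ± 2.12 CPM above all other groups, which reached up to 20.9 CPM in single libraries. KLF2 had its 2 highest groups in U2OS cells with the drug, at 7.63 ± 0.818 (WT) and 8.55 ± 1.34 CPM (ID3-KO), which overlapped, and KLF4 overlapped in 6 of 7 pairs.

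The profiles of single genes over the 24 libraries were compared with those of the members by Pearson's r of log2 CPM, among 14176 genes of at least 1 CPM on average, as a description. All points share the 8 groups and the depth of their library. POU2F2 (r = 0.988) and TMC8 (0.979) were most like KLF15. DNAJC13 (0.983) and PARP4 (0.972) were most like KLF7, FYTTD1 (0.965) and STK33 (0.941) like KLF5, BEST3 (0.955) like KLF6, and PHLDA2 (0.96) and INPP1 (0.95) like KLF2. For KLF3 they were MDM2 (0.956) and HEATR1 (0.95), for KLF11 CDH13 (0.95) and USP6NL (0.944), for KLF9 SPTSSA (0.943) and TTLL1 (0.924), and for KLF10 TJP1 (0.908) and MCL1 (0.875). KLF4, with few counts, had its closest profile in KCNH2 (0.712) and WWC2 (0.69). Between members, the strongest correlations were negative, -0.92 for KLF2 and KLF7 and -0.86 for KLF7 and KLF15, followed by 0.806 for KLF9 and KLF15, 0.796 for KLF2 and KLF15 and 0.775 for KLF3 and KLF6.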

How the data were processed

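RNA-seq had been performed by the authors on stranded total RNA libraries, read as pairs. Per the labels and the methods of the study, reads were aligned with STAR to hg19 (GRCh37) and counted over genes with featureCounts by the authors, and the versions were not given in the sources used here. The deposited counts of both strands together were used unnormalised, the deposited reverse-strand counts served as an alternative, and the authors' deposited TPM that sum to a fixed total were used for levels between genes. Another TPM column of the same files, which sums to more than that total, was not used.

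Counts were analysed in R (version 4.3.3) with edgeR (version 4.0.16) by its quasi-likelihood test with robust dispersion, TMM scaling and filterByExpr. P-values were adjusted by Benjamini and Hochberg over all genes tested, and 0.05 was the threshold. Each treatment response and each comparison of untreated genotypes used its own 6 libraries, each interaction of genotype and treatment 12, and the difference between U2OS and AID-DIvA responses 24. Standard errors were taken from the log2 fold change and the F statistic of that test. CPM are scaled by TMM factors over all 24 libraries. The model script was tested on simulated data. Sequence windows came from RefSeq.

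DESeq2 (version 1.42.0) and its size factors in edgeR, no filter, at least 10 counts in every library, reverse-strand counts, a replicate block, 1 joint model of the 4 groups of each line, and leaving out each library were tried as alternatives. Counts of list genes without the untreated U2OS WT library that stood apart were added after the data were seen. Genes of the lists were named where they passed in at least 3 of the 4 treatment comparisons or were among the 4 largest changes in one, and all 10 members were named. A few genes of the lists and of the closest profiles are not reported here, and the list counts leave them out. The members, the lists and this rule were chosen with earlier results of these data known. The 3 samples of a group are labelled as biological replicates, and nothing more is said of their origin, so p-values measure the spread between these samples. The comparisons of untreated genotypes share their libraries with the treatment comparisons.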

Additional observations from a re-analysis of the deposited data

Results flagged for a closer look

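The response to mocetinostat differed between U2OS cells and AID-DIvA cells after recovery, by a test of the difference itself (edgeR, 24 libraries), for 8 members in WT cells and 5 in ID3-KO cells. Of all genes tested, 22.8% were higher and 22.6% lower in WT cells, and 24.3% and 21.7% in ID3-KO cells. Values are the U2OS response minus the AID-DIvA response on the log2 scale. In WT cells they were 0.71 for KLF2, 1.07 for KLF5, -0.57 for KLF6, -0.33 for KLF7, 0.59 for KLF9, 0.48 for KLF10, 0.33 for KLF11 and 0.79 for KLF15. In ID3-KO cells they were 0.61 for KLF2, 0.59 for KLF5, -0.81 for KLF6, 0.61 for KLF9 and 1.16 for KLF15. The KLF2 difference was called in 13 of 18 alternatives in WT cells and in 7 of 18 in ID3-KO cells. That of KLF7 in WT cells was called in 12 of 18. Recovery and the cell line cannot be told apart in these differences. For KLF6 the sign of the response also changed in ID3-KO cells, with a rise after recovery and a small fall in U2OS cells.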

How the results depend on the processing

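Of 1479 alternative values for single members 1395 kept their side of the threshold, 67 lost the call, 17 gained one and 0 changed direction among called values. Values called in neither fit could change sign and still count among the 1395. For KLF2 in untreated U2OS cells, for example, the main value was -0.09 and the alternatives ran from -0.23 to 0.16. DESeq2 counted 2 members higher in untreated AID-DIvA ID3-KO cells, where edgeR counted 4, and 1 lower, where edgeR counted 0, for the interaction in U2OS cells. With 1 joint model of the 4 groups of each line, 1 member fell in AID-DIvA WT cells and 1 in U2OS ID3-KO cells, where the separate fits counted 3 and 3. With at least 10 counts in every library 1 member, in place of 2, had a lower U2OS response than AID-DIvA response in WT cells. The shares of all genes called in these settings were not counted, and the causes were not tested.

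Correlations of same-numbered deviations ran from -0.425 to 0.365 over 15595 genes, and no comparison had every pair above 0.1. Differently numbered samples were not compared, so these values cannot settle whether the replicate numbers pair the samples. With the replicate block 1 member, in place of 2, was higher in untreated U2OS ID3-KO cells, and of 99 member values 97 kept their side of the threshold, while the calls of KLF10 in AID-DIvA WT cells (-0.13, adjusted p = 0.061) and KLF11 in untreated U2OS cells (0.34, adjusted p = 0.0938) were lost. The share of all genes called with the block was not counted.

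Leaving out 1 library at a time gave 2 to 4 members higher and 1 to 3 lower for AID-DIvA WT cells, 4 to 5 higher and 1 to 2 lower for AID-DIvA ID3-KO cells, 4 to 7 and 0 to 3 for U2OS WT cells, and 5 to 5 and 2 to 3 for U2OS ID3-KO cells. In untreated cells it gave 2 to 4 higher and 1 to 1 lower (AID-DIvA) and 1 to 2 higher and 1 to 3 lower (U2OS). For the interaction in U2OS cells it gave 0 to 1 lower, and for the difference between the lines 5 to 6 higher and 1 to 3 lower in WT and 3 to 4 higher and 1 to 1 lower in ID3-KO cells. The highest counts in U2OS WT cells, 7 and 3, came without untreated replicate 1, where 33.9% of all genes rose and 32.5% fell. Without any 1 of the 5 other libraries 0 lower was found. For untreated U2OS cells without the apart library the shares of all genes were 20.5% higher and 20.6% lower. In the remaining fits with 1 library left out such shares were not counted, so these ranges cannot be set against all genes.

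KLF4, at 6 to 38 counts per library, and untreated KLF15 limit what depth can show, and results with untreated U2OS WT cells depend on the library that stood apart. The U2OS stage is inferred, and the AID-DIvA signs rest on the titles.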
